A study of Homo sapiens with 14 samples.

Results

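The MYB family and the MYC-MAX network were followed in U2OS osteosarcoma cells through 9 genes: MYB, MYBL1, MYBL2, MYC, MAX, MXD1, MXD4, MXI1 and MNT. The members were taken as every probe set that the array annotation assigned to these genes, which gave 16 of the 22215 probe sets that were not array controls, and 9 of the 13119 genes these name. MAX had 5 probe sets, MXD4 had 3, MYB had 2 and each of the other 6 genes had 1. The 3 MXD4 probe sets also named MIR4800, a microRNA gene that lies within MXD4, and are reported under both names. Of the 16 probe sets, 14 lay above the 40th percentile of mean signal over the arrays, a signal of 68.2, and 2 lay below it, MAX 208403_x_at and MXD1 206877_at.

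All cells carried ER-E2F1, a stably expressed fusion of the transcription factor E2F1 to a domain of the estrogen receptor that 4-hydroxytamoxifen (OHT) activates, so the cells without OHT carried the fusion as well. The cells were infected with lentiviruses carrying the hairpins shFOXO33 or shFOXO707, each aimed at both FOXO1 and FOXO3, or a scrambled hairpin (sh-scr), and were starved of serum for 24 h before 6 h with or without 20 nM OHT, also in serum-free medium. The 6 groups were shFOXO33 with OHT (2 arrays), shFOXO707 with OHT (2 arrays), sh-scr with OHT (4 arrays), shFOXO33 without OHT (1 array), shFOXO707 without OHT (1 array) and sh-scr without OHT (4 arrays). The 2 hairpins were also pooled as knockdown cells, 4 arrays with OHT and 2 without, all in 1 cell line. The sources do not say whether replicate arrays came from separate cultures, and the p-values therefore reflect the scatter of these arrays, part of which may be technical.

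MYB, MYBL1 and MYBL2 (c-, A- and B-MYB) are related transcription factors. MYBL2 is a known E2F target that joins the MuvB complex to switch on mitotic genes. MYC binds DNA at E-boxes as a dimer with MAX, and MXD1, MXD4, MXI1 and MNT also pair with MAX but repress the genes that MYC-MAX activates. FOXO factors are known to oppose MYC in part by raising MXI1. Since a microarray reads RNA, the values below are RNA levels, and in such bulk samples fewer cells and less RNA per cell cannot be told apart.

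Signals were the deposited MAS5 intensities, in arbitrary units after scaling of each array to the same trimmed mean of 500. Median signals were 114 to 119 on the arrays with OHT and 137 to 143 on those without. As a check of the hairpins, with OHT FOXO1 was lower in knockdown than in sh-scr cells by a log2 change of -1.29 (limma adjusted p = 8.85e-05) and FOXO3 by -1.81 (limma adjusted p = 0.00136). Without OHT, FOXO1 was lower (-0.99, limma adjusted p = 0.00838), while FOXO3, at -1.13, missed the threshold with the hairpins pooled (limma adjusted p = 0.122). Taken singly, each hairpin had lower FOXO3 without OHT, at -1.59 with shFOXO33 and -0.68 with shFOXO707 (limma in 6 groups, adjusted p = 1.58e-07 and 0.000518). Among the markers, 7 of 8 measured osteoblast and mesenchymal genes lay above the 40th percentile, RUNX2 being the one below it, as did 3 of 4 epithelial genes, CDH1 being below it, and 1 of 5 blood genes, HBB. The E2F1 probe set passed no test between groups, and the sources do not say whether it detects the transcript of the fusion.

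The comparison of OHT with no OHT asked which members moved with OHT, which activates ER-E2F1. No cells without the fusion were given OHT, so effects of OHT itself and of ER-E2F1 activation cannot be told apart. Other measures moved with OHT in sh-scr cells. The 3'/5' signal ratio of ACTB, a sign of RNA quality, was 1.60 to 1.74 with OHT, against at most 1.59 without. The summed signal of the 4 epithelial markers was 5142 to 5418 with OHT, against 6744 to 7293 without, and that of the 8 osteoblast and mesenchymal markers 38252 to 41415 with OHT, against 44394 to 45316 without. The sums are of linear signals, so the brightest markers weigh most. Of these ranges only those of GAPDH overlapped, and the part of these measures in the OHT results was not tested.

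MYB gave the largest difference among the members. Its probe set 204798_at had signals of 1923, 2143, 2052 and 2166 in sh-scr cells with OHT, against 53.1, 87.2, 105 and 101 in sh-scr cells without OHT. The groups did not overlap, and the ratio of their means was 23.9. In knockdown cells the signals were 3468 and 2984 (shFOXO33 with OHT), 2418 and 2556 (shFOXO707 with OHT), against 162 (shFOXO33 without OHT) and 105 (shFOXO707 without OHT). The log2 change was 4.38 ± 0.17 (SE) in sh-scr cells (limma adjusted p = 6.59e-11) and 4.28 ± 0.21 in knockdown cells (limma adjusted p = 1.82e-09). All 8 arrays with OHT lay above all 6 without it.

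The other MYB probe set, 215152_at, had 310.2, 337, 335 and 346 in sh-scr cells with OHT, against 61.5, 79.0, 48.9 and 41.2 in sh-scr cells without OHT. Its log2 change was 2.27 ± 0.21 (SE; limma adjusted p = 4.54e-07) in sh-scr cells and 2.27 ± 0.26 (limma adjusted p = 7.34e-06) in knockdown cells. Both probe sets of MYB thus rose with OHT, and the ratios of group means in sh-scr cells were 23.9 for 204798_at and 5.76 for 215152_at. Their mean signals in sh-scr cells without OHT were low, 86.6 for 204798_at and 57.7 for 215152_at. These lie near the 40th percentile level of 68.2, so the size of both ratios is less certain than their direction. Log2 changes here are of signal + 16.

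MYBL1 also rose with OHT. Its signals were 2101, 2027, 2037 and 1868 in sh-scr cells with OHT, against 799, 812, 820.4 and 735 in sh-scr cells without OHT. The log2 change was 1.33 ± 0.10 (SE; limma adjusted p = 3.34e-08) in sh-scr cells and 1.34 ± 0.12 (limma adjusted p = 5.66e-07) in knockdown cells. MYBL2, a known E2F target, did not pass the test in the main fit. Its signals were 1156, 1316, 1338 and 1313 in sh-scr cells with OHT, against 1285, 1179, 1187 and 1018 in sh-scr cells without OHT. The ranges overlapped, and the log2 difference was 0.13 with a 95% interval of -0.20 to 0.47 (limma adjusted p = 0.534), and 0.25 in knockdown cells (limma adjusted p = 0.351). Without the shFOXO33 array lacking OHT the knockdown value was 0.62. That fit set both hairpins with OHT against shFOXO707 alone without it. Within each hairpin the log2 change with OHT was 0.15 for shFOXO33 and 0.36 for shFOXO707, with 1 array without OHT each. In the fit with 6 groups, MYBL2 was called higher with OHT for shFOXO707 and for both hairpins together. That fit assumes that the single arrays vary like the other groups.

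**Figure D1:**
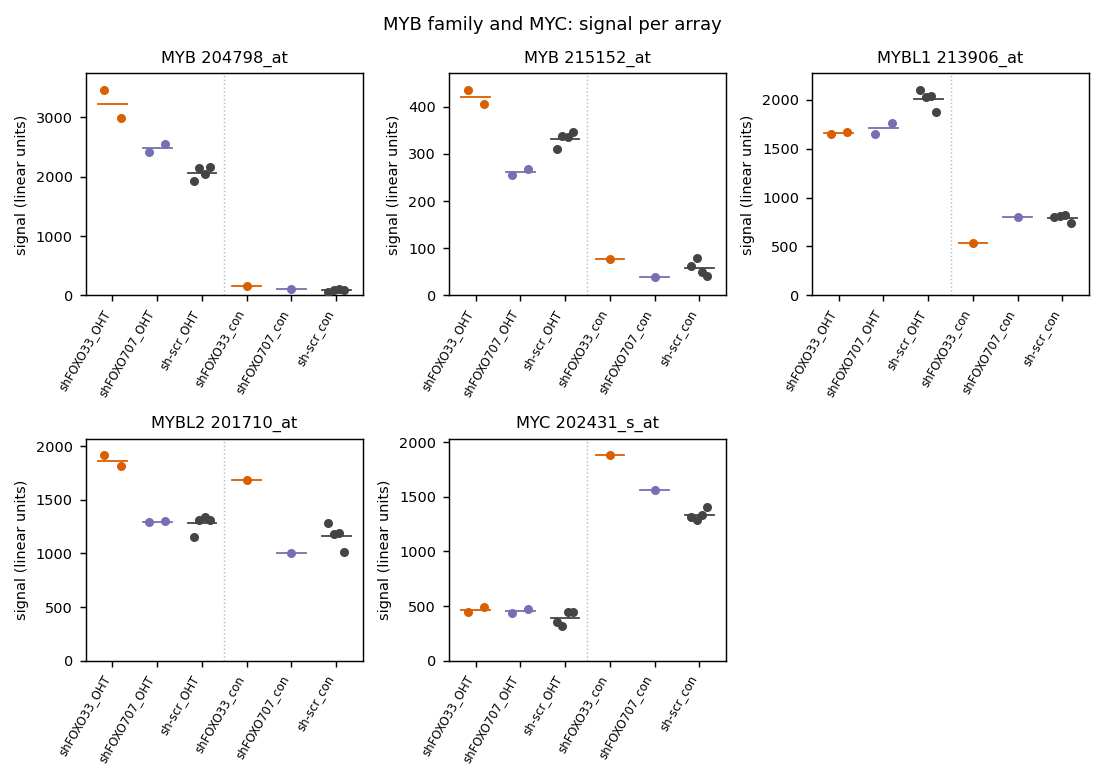
Signals of the MYB family and MYC by array in the 6 groups, with 1 point per array, a short line at each group mean and linear axes from 0. MYB 204798_at lies between 1923 and 3468 on the 8 arrays with OHT and between 53.1 and 162 on the 6 arrays without it, and MYC lies between 317 and 490.4 with OHT and between 1291 and 1881 without.

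The upstream windows of MYB, which rose with OHT, and of MYBL2, which was not called in the main fit, are shown because both hold the same word. They run from 250 bases before the listed start to 50 after it, on the plus strand of GRCh38.p14, with sequences from RefSeq. MYB lies at chr6:135181058-135181357 and MYBL2 at chr20:43666864-43667163, and capitals mark TTGGCGGG, which sits at positions -60 to -53 from the listed start of MYB and -41 to -34 from that of MYBL2, taking the start base as 0.
MYB: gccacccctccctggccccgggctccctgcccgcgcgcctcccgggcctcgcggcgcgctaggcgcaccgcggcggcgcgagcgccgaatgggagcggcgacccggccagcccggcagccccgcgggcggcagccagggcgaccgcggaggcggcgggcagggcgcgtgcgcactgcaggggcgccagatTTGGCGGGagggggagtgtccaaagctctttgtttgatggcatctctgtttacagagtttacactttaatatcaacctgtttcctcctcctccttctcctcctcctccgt
MYBL2: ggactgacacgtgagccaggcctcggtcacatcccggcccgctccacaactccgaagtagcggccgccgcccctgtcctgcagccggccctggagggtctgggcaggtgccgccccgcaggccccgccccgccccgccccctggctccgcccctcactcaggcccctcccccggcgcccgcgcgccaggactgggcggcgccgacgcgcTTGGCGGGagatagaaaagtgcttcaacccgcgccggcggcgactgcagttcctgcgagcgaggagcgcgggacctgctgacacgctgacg
TTGGCGGG was chosen after the windows were read, was searched on both strands and is in 1.2% of the 35116 RefSeq windows. The 4 other E2F words searched on both strands (TTTCCCGC, TTTCGCGC, TTTGCCGC and TTTGGCGC) were in 0 of the 10 member windows, which covered 7 genes, and in 3.31% of all windows. Windows of MYC and MYBL1 were not analysed here. The E-box CACGTG, the word MYC-MAX dimers read, was in the windows of MYBL2, MXD4 and MNT and in 7.26% of all windows.

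MYC, the network's activator, fell with OHT. Its signals were 355, 317, 444 and 443 in sh-scr cells with OHT, against 1314, 1291, 1330.0 and 1404 in sh-scr cells without OHT. In knockdown cells they were 445 and 490.4 (shFOXO33) and 435 and 477 (shFOXO707) with OHT, against 1881 (shFOXO33) and 1563 (shFOXO707) without. The lowest array without OHT was above the highest with it in each of the sh-scr and knockdown comparisons. The log2 change was -1.75 ± 0.10 (SE; limma adjusted p = 4.34e-09) in sh-scr cells and -1.86 ± 0.13 (limma adjusted p = 4.68e-08) in knockdown cells.

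MAX, the shared dimerization partner, fell on 4 of its 5 probe sets. Probe set 209332_s_at had 464, 505, 469.6 and 471 in sh-scr cells with OHT, against 1304, 1378, 1369 and 1339 in sh-scr cells without OHT, a log2 change of -1.47 ± 0.10 (SE; limma adjusted p = 1.27e-08). In knockdown cells it had 784 and 800.1 (shFOXO33) and 651 and 624 (shFOXO707) with OHT, against 2173 (shFOXO33) and 1636 (shFOXO707) without, a log2 change of -1.39 ± 0.12 (limma adjusted p = 4.52e-07). In both comparisons every array with OHT was below every array without it. Probe sets 209331_s_at, 210734_x_at and 208403_x_at changed by -1.55, -1.58 and -0.84 in sh-scr cells (limma adjusted p = 7.90e-09, 4.00e-05 and 0.00533) and fell in knockdown cells too. Their log2 changes in knockdown cells were -1.35, -1.21 and -0.75 (limma adjusted p = 6.58e-07, 0.00330 and 0.0437). The knockdown call of 208403_x_at was lost under median centring (-0.52, limma adjusted p = 0.157) and quantile normalization (-0.58, 0.117). Leaving out any 1 of 9 arrays ended the call of 208403_x_at in knockdown cells (limma adjusted p up to 0.188), and leaving out the shFOXO33 array without OHT ended that of 210734_x_at (-0.99, 0.0523). The fifth probe set, 214108_at, differed by 0.08 in sh-scr and 0.01 in knockdown cells. It was not called (limma adjusted p = 0.743 and 0.972), so the probe sets of MAX disagreed. Its signals were low, 62.0 to 109.8 over all arrays, near the 40th percentile level of 68.2. Probe set 208403_x_at, which fell, had a mean below that level.

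**Figure D2:**
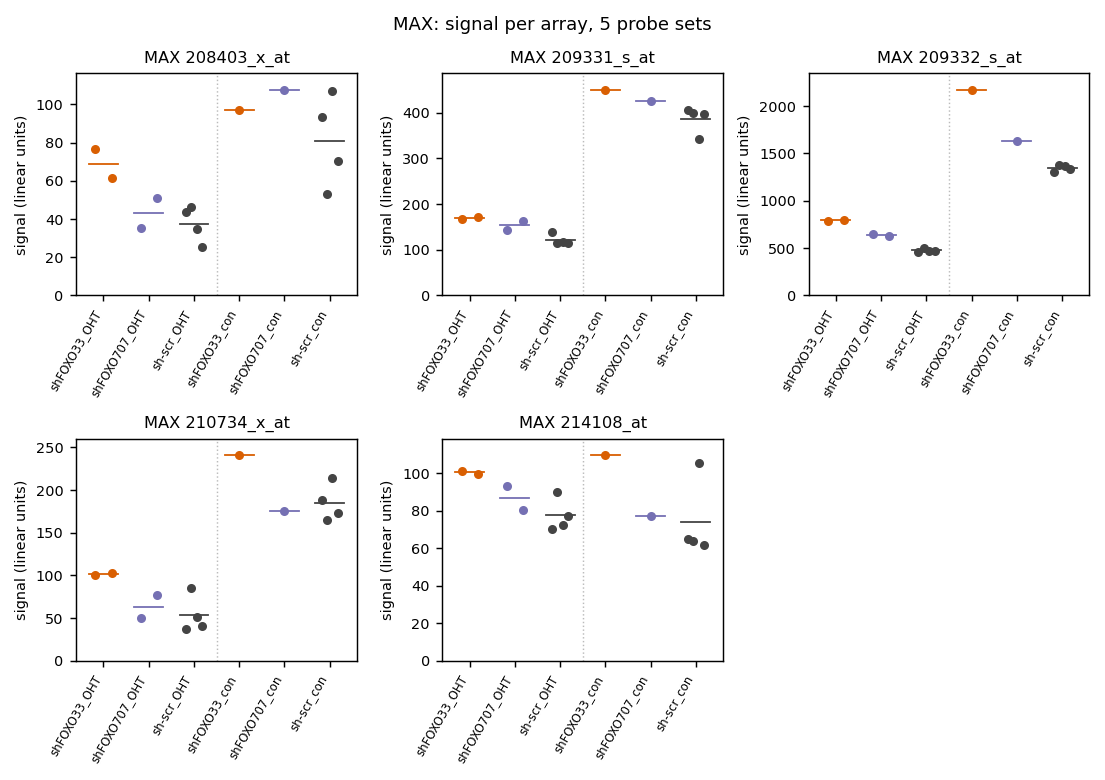
Signals of the 5 MAX probe sets by array in the 6 groups, with 1 point per array, a short line at each group mean and linear axes from 0. Probe set 209332_s_at lies between 464 and 800.1 with OHT and between 1304 and 2173 without, whereas 214108_at lies between 70.3 and 101 with OHT and between 62.0 and 109.8 without.

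The MAX partners that repress MYC targets had 3 probe sets for MXD4 and 1 each for MXD1, MXI1 and MNT. Of these, 1 of MXD4 passed the test in sh-scr cells and that of MXI1 in knockdown cells. Over all probe sets, 45.4% were called with OHT in sh-scr cells and 33.8% in knockdown cells. In sh-scr cells, MXI1 had 2260.0, 2147, 2259.8 and 2156 with OHT, against 2099, 1953, 2106 and 2232 without, and the ranges overlapped (log2 difference 0.07, limma adjusted p = 0.323). In knockdown cells, MXI1 had 1992, 2139, 1915 and 2027 with OHT, against 1683 and 1752 without, and was higher with OHT (0.23 ± 0.07 SE, limma adjusted p = 0.0169). The call was lost without the shFOXO33 array lacking OHT (limma adjusted p = 0.101), with shFOXO707 alone (0.117) and without a variance trend (0.0599). MNT, a broadly expressed MAX partner, had 427, 385, 426 and 487 in sh-scr cells with OHT, against 385, 393, 372 and 351 in sh-scr cells without OHT, a log2 difference of 0.19 (limma adjusted p = 0.155). MXD1 was dim, with signals of 1.46 to 4.08 with OHT and 3.16 to 26.6 without in sh-scr cells, and was not called (-0.42, limma adjusted p = 0.134).

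The 3 probe sets annotated to both MXD4 and MIR4800 disagreed, and the annotation does not show that they measure MIR4800. In sh-scr cells, 212346_s_at had 102, 123, 106 and 131 with OHT, against 181, 188, 177 and 190.1 without, and was lower with OHT (-0.61 ± 0.18 SE, limma adjusted p = 0.0132). That call was lost with each array centred on its median (-0.38, limma adjusted p = 0.111) and with quantile normalization (-0.38, 0.120). Probe sets 210778_s_at and 212347_x_at differed by -0.08 and -0.18 and were not called (limma adjusted p = 0.677 and 0.278). In knockdown cells none of the 3 was called with OHT (limma adjusted p = 0.183 to 0.831), but 212346_s_at was, at -0.64, without shFOXO33 replicate 1 with OHT (0.00377). Probe set 210778_s_at, at 0.21 in knockdown cells, was called higher with OHT under median centring (0.44, limma adjusted p = 0.0488) and quantile normalization (0.44, 0.0457).

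**Figure D3:**
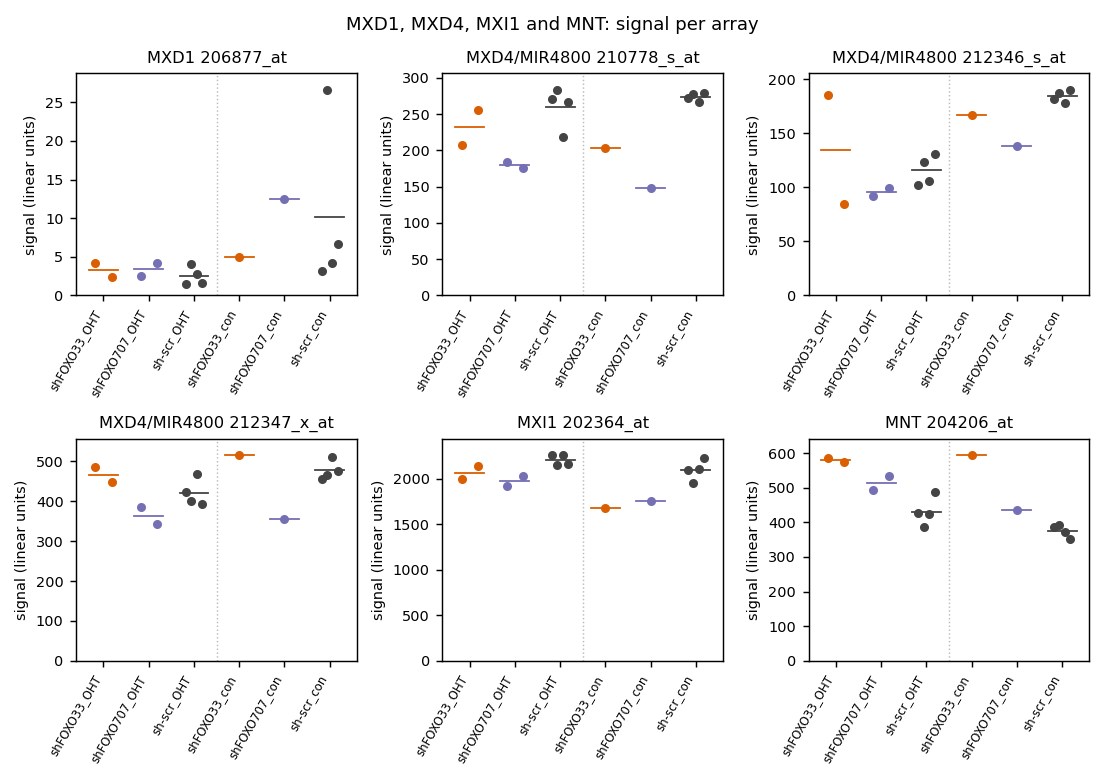
Signals of the probe sets of MXD1, MXD4 (with MIR4800), MXI1 and MNT by array in the 6 groups, with 1 point per array, a short line at each group mean and linear axes from 0. The MXI1 signals keep to 1683 to 2260.0, and the MXD4 probe set 212346_s_at lies at 102 to 131 in sh-scr cells with OHT, against 177 to 190.1 in sh-scr cells without OHT.

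Counted over the 16 member probe sets, 3 rose and 6 fell with OHT in sh-scr cells, against 16.2% of all 22215 probe sets that rose and 29.2% that fell (45.4% in either direction). In knockdown cells, 4 rose and 5 fell, against 12.4% and 21.4% (33.8% in either direction). The median change of the members was -0.13 and that of all probe sets -0.14 in sh-scr cells, and -0.02 and -0.14 in knockdown cells. The split changed with the scaling used, and the reason was not tested. With each array centred on its median, the median of all probe sets was 0.09 in sh-scr cells. Of the member probe sets, 5 then rose and 5 fell. Of all called probe sets in sh-scr cells, 35.7% were higher with the deposited scaling, 56.9% with median centring and 44.6% with quantile normalization. In knockdown cells these shares were 36.7%, 60.4% and 46.2%. Under median centring MXI1 (0.30, limma adjusted p = 0.000540) and MNT (0.42, limma adjusted p = 0.00477) were called higher with OHT in sh-scr cells. MNT was called there under quantile normalization as well (0.37, limma adjusted p = 0.0130). MYB, MYBL1, MYC and the 4 MAX probe sets kept their calls and directions in sh-scr cells under both rescalings.

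**Figure D4:**
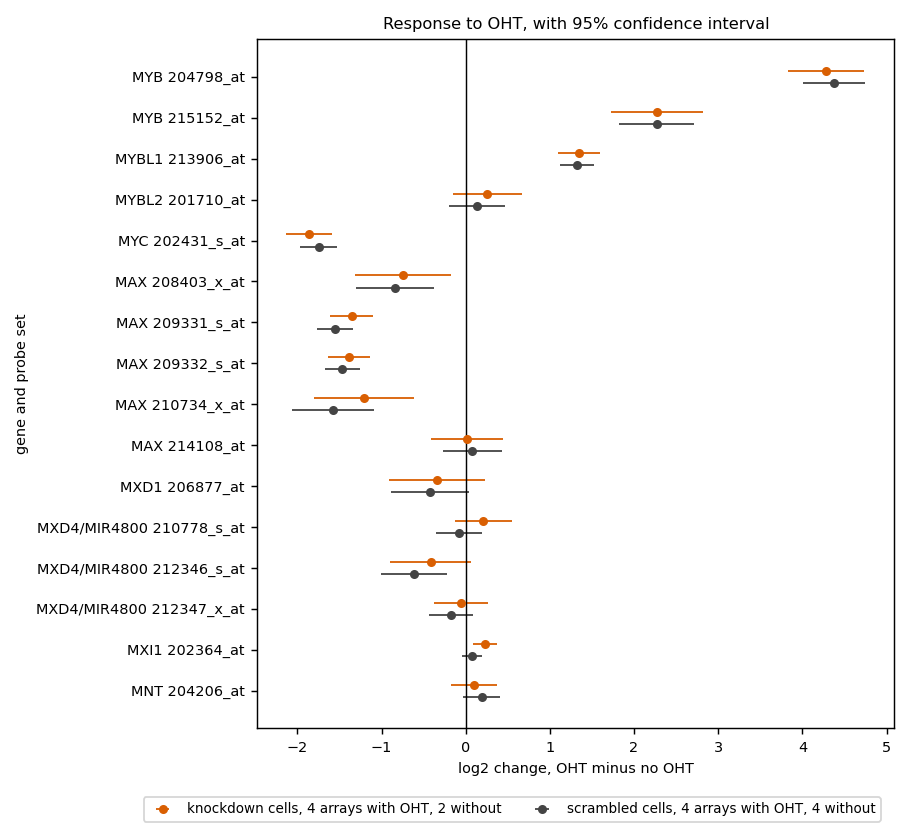
Log2 change with OHT of each member probe set, with 95% intervals, in knockdown cells and in sh-scr cells. MYB stands at 4.28 and 4.38 and MYC at -1.86 and -1.75, and the 2 intervals of each probe set overlap.

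The difference between the OHT responses of knockdown and sh-scr cells asked whether the hairpins changed the response. By limma, 0 of the 16 member probe sets passed at an adjusted p under 0.05, and 0 of 16 had an unadjusted p under 0.05; 0.0405% of all probe sets were called higher and 0.081% lower. Intervals show what could be missed: the difference was -0.10 for MYB 204798_at (95% interval -0.69 to 0.49), 0.02 for MYBL1 (-0.30 to 0.34), -0.11 for MYC (-0.46 to 0.24), 0.08 for MAX 209332_s_at (-0.25 to 0.40) and 0.16 for MXI1 (-0.03 to 0.35).

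Knockdown against sh-scr cells with OHT asked which members moved when FOXO1 and FOXO3 were lowered. MAX was the only member called, by 2 probe sets. Probe set 209332_s_at had 784, 800.1, 651 and 624 in knockdown cells, against 464, 505, 469.6 and 471 in sh-scr cells, with no overlap, a log2 difference of 0.56 ± 0.10 (SE; limma adjusted p = 0.00203). Probe set 209331_s_at had 167, 172, 143 and 163 in knockdown cells, against 139, 114, 117 and 114 in sh-scr cells, and was higher by 0.38 ± 0.10 (limma adjusted p = 0.0248). That call was lost without any 1 of 5 arrays, sh-scr replicates 2, 3 and 4 and both shFOXO33 arrays (limma adjusted p = 0.0574 to 0.0717), and with the arrays of each hairpin averaged (0.101). These 2 probe sets compare with 6.1% of all probe sets called higher and 3.95% lower, and 0 members were called lower. The member median was 0.24, against 0.04 over all probe sets.

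No other member passed in that comparison with the hairpins pooled. MYB 204798_at differed by 0.45 (limma adjusted p = 0.127), MYBL1 by -0.25 (0.120), MYBL2 by 0.28 (0.314), MYC by 0.25 (0.160), MNT by 0.34 (0.0541) and MXI1 by -0.13 (0.182), with limma adjusted p-values in brackets. MNT was called in 4 of the fits that left out an array (limma adjusted p = 0.0211 to 0.0453) and among probe sets above the 40th percentile (0.0347). MYBL1 was called when either knockdown array without OHT was left out (limma adjusted p = 0.0118 to 0.0120). In the fit with 6 groups, where the gap between the hairpins does not count as error, MYB 204798_at (0.0251), MYBL2 (0.00541) and MNT (0.00242) were called higher, and MYBL1 (0.00135) and MXD4 210778_s_at (0.0208) lower, by limma adjusted p.

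Without OHT, where knockdown had 1 array per hairpin, MAX 209332_s_at was higher, with 2173 and 1636 in knockdown cells, against 1304, 1378, 1369 and 1339 in sh-scr cells (0.48 ± 0.12 SE, limma adjusted p = 0.0404). MXI1 was lower, with 1683 and 1752 in knockdown cells, against 2099, 1953, 2106 and 2232 in sh-scr cells (-0.28 ± 0.07 SE, limma adjusted p = 0.0356). In both, the groups did not overlap. The 2 calls, 1 higher and 1 lower among 16, compare with 1.76% and 1.4% of all probe sets, and the member median was 0.15, against 0.03 over all. Each call was lost without any 1 of 9 arrays (limma adjusted p up to 0.318 for MAX and 0.154 for MXI1), and both without a variance trend (0.0864 and 0.133), and MAX also under median centring (0.0630). MXD4 210778_s_at had 204 and 149 in knockdown cells, against 272, 277, 266 and 279 in sh-scr cells. It missed the threshold in the main fit (-0.61, limma adjusted p = 0.0534). The probe set was called lower under median centring (limma adjusted p = 0.0423), quantile normalization (0.0382), the 40th percentile filter (0.0300) and with hairpin arrays averaged (0.0464). It was also called without shFOXO33 replicate 2 or shFOXO707 replicate 2 with OHT. Without the shFOXO33 array lacking OHT its value was -0.82. Without the shFOXO707 array, MNT at 0.64 and MYBL1 at -0.55 were called (limma adjusted p = 0.0215 and 0.00647).

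The MXI1 window at the listed start farthest downstream, chr10:110225746-110226045 on the plus strand of GRCh38.p14, is shown because MXI1 is known as a FOXO target and this window holds the FOXO word GTAAACA, in capitals, at positions -2 to 4.
MXI1: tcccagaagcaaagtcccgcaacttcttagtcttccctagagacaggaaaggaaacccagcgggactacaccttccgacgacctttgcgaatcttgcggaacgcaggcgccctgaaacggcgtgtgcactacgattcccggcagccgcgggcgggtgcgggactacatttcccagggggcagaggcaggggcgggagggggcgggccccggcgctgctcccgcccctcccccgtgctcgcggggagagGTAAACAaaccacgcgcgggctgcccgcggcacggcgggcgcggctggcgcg
That word, searched on both strands, was also in a second of the 3 MXI1 windows and in that of MYB, and in 3.42% of all windows.

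The hairpins were also taken one by one. Set against the same sh-scr arrays with OHT, shFOXO33 had 6 member probe sets higher and 1 lower, against 13.7% and 11.6% of all, and shFOXO707 had 1 higher and 2 lower, against 11.2% and 9.28%. Since both share those arrays, their values stand side by side. MAX 209332_s_at was higher with each, by 0.71 with shFOXO33 and 0.41 with shFOXO707 (limma adjusted p = 1.51e-07 and 5.92e-05), and MYBL1 was lower with each, at -0.27 and -0.23 (limma adjusted p = 0.00319 and 0.0114). MYB 204798_at differed by 0.63 with shFOXO33 and 0.26 with shFOXO707 (limma adjusted p = 0.0105 and 0.327), and MXD4 210778_s_at by -0.15 and -0.49 (0.391 and 0.00638).

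Tested directly, shFOXO707 minus shFOXO33 with OHT, 4 of 16 member probe sets were lower and 0 higher, against 11.0% of all lower and 11.1% higher; the member median was -0.32, against -0.03 over all. MYBL2 had 1289 and 1304 with shFOXO707, against 1918 and 1812 with shFOXO33, a difference of -0.52 ± 0.09 (SE; limma adjusted p = 0.000725). In sh-scr cells with OHT it had 1156 to 1338, a range that held both shFOXO707 arrays and neither shFOXO33 array. MYB 215152_at had 255 and 268 with shFOXO707, against 436 and 405 with shFOXO33 (-0.65 ± 0.19, limma adjusted p = 0.0242), whereas 204798_at, at -0.37, was not called (limma adjusted p = 0.206). MAX 209332_s_at was lower with shFOXO707, at -0.31 ± 0.06 (limma adjusted p = 0.00167) and MXD4 212347_x_at at -0.34 ± 0.10 (limma adjusted p = 0.0191). MYB 215152_at lost its call without any 1 of the 4 hairpin arrays (limma adjusted p = 0.0712 to 0.131), and MXD4 212347_x_at without shFOXO33 replicate 1 or shFOXO707 replicate 2 (0.140 to 0.157). Calls were gained by MYB 204798_at without sh-scr replicate 1 lacking OHT (0.0108), by MXD4 210778_s_at without shFOXO33 replicate 1 (-0.48, 0.0492) and by MXD4 212346_s_at without shFOXO33 replicate 2 (-0.85, 0.00571), all limma adjusted p-values.

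Several measures moved with the hairpin. FOXO3 signals were 766 to 853 with shFOXO707 and OHT, against 290 to 325 with shFOXO33 and OHT. The 3'/5' signal ratio of ACTB was 1.95 to 2.04 with shFOXO707 and OHT, against 1.60 to 1.63 with shFOXO33 and OHT and 1.60 to 1.74 in sh-scr cells with OHT. The summed signal of the 4 epithelial markers was 3432 to 3515 with shFOXO707 and OHT, against 5864 to 6197 with shFOXO33 and OHT and 5142 to 5418 in sh-scr cells with OHT. The osteoblast and mesenchymal sum was 36539 to 39250 with shFOXO707 and OHT, against 32711 to 33870 with shFOXO33 and OHT and 38252 to 41415 in sh-scr cells with OHT, so it was lowest with shFOXO33. These sums are of linear signals, so the brightest markers weigh most. Over all arrays the epithelial marker KRT18 ran from 2104 to 5568 and CDH1 from 9.06 to 61.3. Among the osteoblast and mesenchymal markers, SPARC ran from 777 to 9433 and ALPL from 76.2 to 274. The part of these measures in the differences above was not tested.

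**Figure D5:**
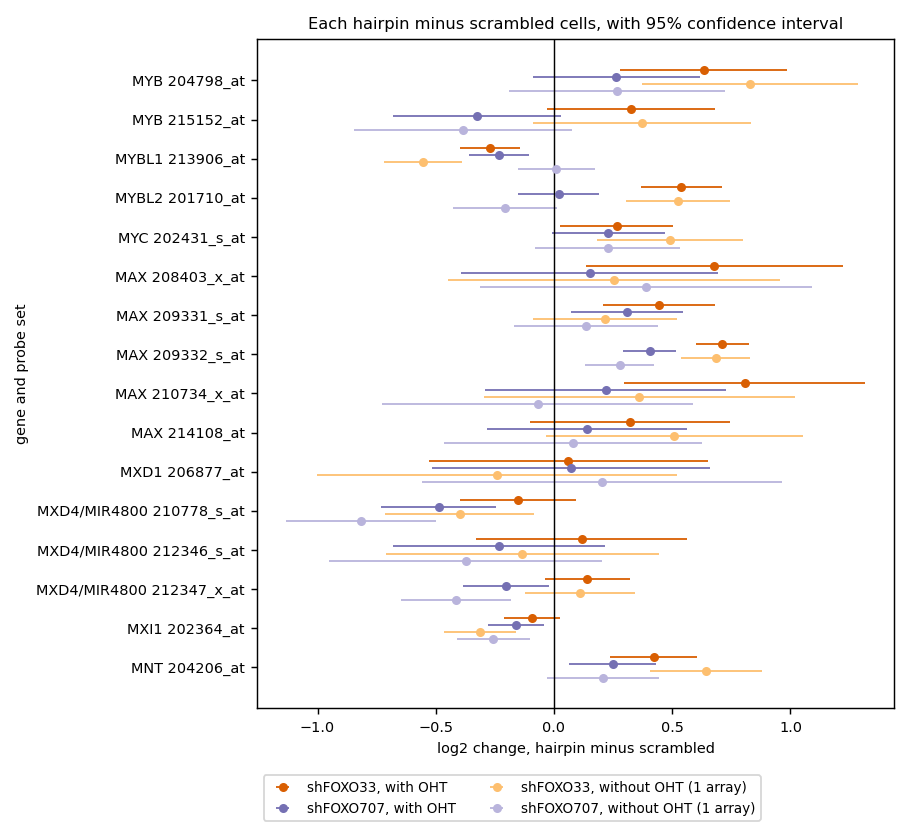
Log2 difference from sh-scr cells of each member probe set, with 95% intervals, for shFOXO33 and shFOXO707 with OHT (dark) and without OHT (pale, 1 array each). With OHT, MAX 209332_s_at stands at 0.71 for shFOXO33 and 0.41 for shFOXO707, and MYBL2 at 0.54 and 0.02.

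Without OHT each hairpin had 1 array and so no spread of its own. The p-values and counts below borrow the spread of the 4 groups with replicates, on the assumption that the single arrays vary alike. The shFOXO33 array had 5 member probe sets higher and 2 lower than sh-scr cells, against 6.75% and 7.59% of all, and the shFOXO707 array had 1 higher and 3 lower, against 6.45% and 6.21%. MXI1 was lower with each, at -0.31 with shFOXO33 and -0.26 with shFOXO707 (limma adjusted p = 0.00785 and 0.0283). MYC was higher with shFOXO33, by 0.49 (limma adjusted p = 0.0337), and differed by 0.23 with shFOXO707 (0.395).

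Other genes of the pathway were counted by lists, each gene by its brightest probe set, and those named are among the called genes with the smallest adjusted p of each list. With OHT in sh-scr cells, 17.0% of 11963 genes were higher and 33.0% lower, with a median of -0.17. Of 13 measured other members and partners of the MYC-MAX-MLX network, 1 rose and 9 fell, with a median of -0.51: MLXIP, a glucose-sensing partner of MLX, rose by 1.04, and ZBTB17, which MYC binds to repress genes, fell by 1.30. With either rescaling 6 fell. Of 8 MYB partners and MuvB subunits, 3 rose and 4 fell, with a median of -0.26; the histone-binding subunit RBBP4 rose by 0.54 and LIN37 fell by 1.38. With median centring 3 rose and 2 fell, and with quantile normalization 3 rose and 4 fell.

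Genes described as MYC-activated did not move as 1 block: of 23 measured, 3 rose and 11 fell, with a median of -0.19. With median centring 6 rose and 5 fell, and with quantile normalization 3 rose and 11 fell. The polyamine enzyme ODC1 rose by 1.09 and the transferrin receptor TFRC by 1.14, while NOP16, a nucleolar protein, fell by 2.09. Of 6 MYC-repressed genes 3 rose and 2 fell, with a median of 0.20; NDRG1 rose by 1.38 and the stress gene GADD45A fell by 0.87. Of 7 MYB-activated genes, a list that holds the member MYC, 2 rose and 2 fell, with a median of 0.07: the survival gene BCL2 rose by 2.25 and MAT2A by 1.04, while MYC fell by 1.75 and the transcription factor GATA3 fell by 1.67. Of 11 genes described as MYBL2- and MuvB-activated, 0 rose and 8 fell, with a median of -0.53. The mitotic motor CENPE fell by 1.89 and CDC20, an activator of the anaphase-promoting complex, fell by 1.39. On that list 1 rose and 6 fell with median centring, and 0 rose and 7 fell with quantile normalization.

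With OHT, knockdown against sh-scr cells, 7.6% of genes were higher and 4.26% lower, with a median of 0.04. Of the 11 MYBL2- and MuvB-activated genes 5 were higher and 0 lower, with a median of 0.19, among them CENPE by 0.72 and the mitotic kinase PLK1 by 0.66 (limma adjusted p = 0.000104 and 0.00622). Counts on the other lists ran from 0 to 3 higher and from 0 to 2 lower. CENPE was also the only list gene whose OHT response differed between knockdown and sh-scr cells (0.75, limma adjusted p = 0.0489), against 0.0418% of genes called higher and 0.117% lower, and no list gene passed under either rescaling.

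Between the hairpins with OHT, 13.1% of genes were higher and 12.5% lower with shFOXO707 than with shFOXO33. Of 23 MYC-activated genes, 2 were higher and 9 lower, with the spermidine synthase SRM at -2.66. Of the MYBL2- and MuvB-activated genes 0 were higher and 6 lower, with BIRC5 at -0.57 and AURKA at -0.51.

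Likeness of pattern was taken as Pearson's r over the 14 arrays, among 7962 genes with 1 probe set each, and describes arrays that share treatments and hairpins. The 5 genes most like MYB were FAM184A (0.995), TMEM70, PRKD3, CLMN and ADCK2. Those most like MYC were RMND1 (0.990), TNFRSF11B, MEIS3P1, ARMCX2 and BRF2. Those most like MXI1 were RTN2 (0.889), NSF, REV3L, CDKN1A (0.865) and CHGB, a weaker likeness.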

How the data were processed

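RNA of 14 U2OS ER-E2F1 samples was read on 1 Affymetrix array each. The authors deposited 1 linear intensity per probe set, produced by MAS5 (per the submitters' processing notes, with no version). The mean of each array without its lowest and highest 2% was 500. The table held 22277 probe sets, of which 62 array controls were left out. Of the others, 19064 named 1 gene, 1043 several and 2108 none, and 19052 symbols were updated by Entrez identifier with RefSeq GRCh38.p14.

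Values were log2(signal + 16), without a filter. Groups came from the sample titles. The transfection label of the 4 sh-scr samples with OHT reads sh-scr_con, as in those without OHT, but their treatment label names OHT, like the titles. Differences were fitted with limma 3.58.1 in R 4.3.3 (lmFit, eBayes with a trend) in 4 groups with the hairpins pooled, and in 6 groups for single hairpins. Tests were two-sided, with Benjamini-Hochberg adjustment over 22215 probe sets and a call at an adjusted p under 0.05. Arrays that share a hairpin entered singly, which can inflate the number of knockdown calls. The script was tested on simulated data. The number of arrays limits the precision. Named were all members and, per list, up to 4 called genes with the smallest adjusted p. Members and lists were chosen with earlier results of these data known. Alternatives covered scaling, pseudocount, filter, variance trend, grouping, a replicate block and leaving out each array.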

Additional observations from a re-analysis of the deposited data

Results flagged for a closer look

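In 4 of the 32 tested groups of 4 arrays, 1 array stood apart from the other 3 by Dixon's test, where chance gives about 1 in 20. MYBL2 had 1156 in sh-scr replicate 1 with OHT, below the other 3. MAX 209331_s_at had 139 in sh-scr replicate 1 with OHT, above the other 3, and 343 in sh-scr replicate 3 without OHT, below the other 3. MAX 214108_at had 105 in sh-scr replicate 3 without OHT, above the other 3.

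The hairpins differed with OHT, shFOXO707 minus shFOXO33, on 4 member probe sets by limma in 6 groups. The log2 differences were -0.65 for MYB 215152_at, -0.52 for MYBL2, -0.31 for MAX 209332_s_at and -0.34 for MXD4 212347_x_at.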

How the results depend on the processing

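Over all alternatives, 0 member values that passed the test changed sign. The OHT calls in sh-scr cells were 3 higher and 6 lower whichever array was left out. They were 5 higher with median centring and 4 higher with quantile normalization or 6 groups. In knockdown cells leaving out an array gave 4 higher and 3 to 6 lower. Counts here are of member probe sets. Those higher with knockdown and OHT numbered 2, but 1 with the replicate block, shFOXO707 alone or hairpin arrays averaged, 5 with 6 groups, 6 with shFOXO33 alone and 1 to 3 leaving out an array. Those lower there numbered 0, but 1 with the replicate block or shFOXO33 alone, 2 with 6 groups or shFOXO707 alone, and 0 to 1 leaving out an array. Without OHT, 1 was higher, but 0 with median centring or no variance trend, 4 with 6 groups, 5 with shFOXO33 alone and 0 to 2 leaving out an array. Lower there was 1, but 0 with no variance trend, 2 with median centring, quantile normalization, the filter, shFOXO33 alone or hairpin arrays averaged, 3 with 6 groups or shFOXO707 alone, and 0 to 2 leaving out an array. The hairpin difference gave 2 to 5 lower leaving out an array. Where a hairpin was left with 1 array, that array was assumed to vary like the other groups. The cause of these shifts was not tested.

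Same-numbered arrays did not deviate together (r -0.03 to 0.02), so the numbers were not taken as pairs. With the replicate block, 3 member probe sets were higher and 6 lower with OHT in sh-scr cells and 4 lower between hairpins. With knockdown and OHT, the block ended the call of MAX 209331_s_at (limma adjusted p = 0.187) and MYBL1 was called lower (0.0303). No paired analysis was possible for the comparisons that use knockdown arrays without OHT, because their titles carry no number.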
